A study of Mus musculus with 5 samples.

Results

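Bone morphogenetic proteins (BMPs) and transforming growth factor beta (TGF-beta) signal to many cell types of the early embryo, and 9 mouse genes of this system were followed in DamID peak lists of the transcription factors SOX7, FLI1 and ERG. The 9 genes were taken by symbol: the ligand genes Bmp2, Bmp4, Bmp6 and Tgfb1, the secreted modulator gene Bmper, the type I receptor gene Acvrl1, the type II receptor genes Bmpr2 and Tgfbr2, and the coreceptor gene Eng. A row in at least 1 list was found for 8 of the 9, among 12507 genes listed in all. Bmp4 had no row in the lists used here, as was so for 57.5% of 21900 protein-coding genes of a reference table.

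In DamID a factor is fused to the bacterial Dam methylase, which methylates adenine in GATC, so that DNA close to a bound factor gains the mark. There were 5 libraries, with 1 library per group: SOX7-Dam (line iSox7::Dam), FLI1-Dam (line IFli1::Dam), ERG-Dam (line iErg::Dam), and 2 libraries of Dam without a factor (line iDam). SOX7 was called against 1 of these controls, and both ETS factors against the other. Ainv18 is named as the derivative for each line. All libraries came from endothelial precursor cells made from embryonic stem cells, by isolating FLK1+ cells at day 3 of embryoid body differentiation, keeping them for 1 day in a blast medium with VEGF and IL6, and sorting for cKIT+ TIE2+ cells. Each factor has its own line, so factor and line cannot be told apart. A peak list holds no expression, so the cell type label was not checked against markers.

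BMP and TGF-beta ligands are secreted dimers that bring type I and type II receptor kinases together on the cell surface, and the activated type I receptor phosphorylates SMAD proteins that enter the nucleus. Endothelial cells are known for the type I receptor ALK1, encoded by Acvrl1, and for the coreceptor endoglin, encoded by Eng, and inherited loss of either gene causes vascular malformations in humans. BMP4 is used to direct embryonic stem cells to mesoderm, from which blood and vessel precursors arise.

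The members were listed for SOX7-Dam in 8 of 9 cases (88.9%, exact binomial 95% interval 51.8 to 99.7), against 23.0% of the reference genes. They were listed for FLI1-Dam in 7 of 9 cases (77.8%, 40.0 to 97.2), against 35.3%, and for ERG-Dam in 5 of 9 cases (55.6%, 21.2 to 86.3), against 5.75%. Bmp2, Tgfb1, Bmpr2 and Eng were in all 3 lists, 4 of 9 genes, against 3.35% of the reference genes. Bmp6, Bmper and Tgfbr2 were listed for SOX7-Dam and FLI1-Dam and not for ERG-Dam, while Acvrl1 was listed for SOX7-Dam and ERG-Dam and not for FLI1-Dam. The members were picked as pathway genes with earlier results of these lists known and gene length was not accounted for, so the shares describe these 9 genes. With 1 library per group there is no replicate check of any difference between factors. The binomial intervals treat the 9 genes as independent draws and cover no variation between libraries.

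The sequences before the start sites of 3 of the 4 genes in all 3 lists are shown because DamID can mark only DNA with GATC and because ETS factors such as FLI1 and ERG recognise a GGAA core. They are the 250 bases before the start, from RefSeq on GRCm38.p6, read 5′ to 3′ on the strand of the gene, with capitals on GGAA and its reverse complement TTCC. The peaks are on mm9, so no peak was placed on these sequences.
Eng, chr2:32646345-32646594, plus strand: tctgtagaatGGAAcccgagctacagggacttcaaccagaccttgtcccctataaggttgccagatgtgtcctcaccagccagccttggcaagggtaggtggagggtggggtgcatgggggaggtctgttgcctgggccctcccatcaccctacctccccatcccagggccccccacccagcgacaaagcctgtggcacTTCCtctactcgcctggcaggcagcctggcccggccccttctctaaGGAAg
Bmpr2, chr1:59764029-59764278, plus strand: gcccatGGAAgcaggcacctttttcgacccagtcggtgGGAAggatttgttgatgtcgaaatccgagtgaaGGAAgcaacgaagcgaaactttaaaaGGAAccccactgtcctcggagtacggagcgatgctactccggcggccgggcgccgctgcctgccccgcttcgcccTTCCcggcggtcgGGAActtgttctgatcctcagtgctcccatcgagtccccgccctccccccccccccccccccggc
Tgfb1, chr7:25686752-25687001, plus strand: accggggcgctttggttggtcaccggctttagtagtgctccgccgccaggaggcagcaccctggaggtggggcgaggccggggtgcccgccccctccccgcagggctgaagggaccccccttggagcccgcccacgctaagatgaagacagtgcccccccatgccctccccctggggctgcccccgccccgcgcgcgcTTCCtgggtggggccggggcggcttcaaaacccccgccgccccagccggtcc
The GGAA core occurred 3 times before Eng, 6 times before Bmpr2 and 1 time before Tgfb1, on either strand. Of 32851 promoters of the same length 93.5% held at least 1, and the median was 3.0. The longer ETS form CNGGAAGT, which contains GGAA, and the SOX forms ACAAT and AACAAT, the second of which contains the first, were found on neither strand of these 3 sequences. They occurred in 7.58%, 27.7% and 9.42% of the 32851 promoters. GATC was found once before Bmpr2, 53 bases from the start, and not in the 250 bases before Eng or Tgfb1, while 41.9% of promoters held it. Of the 9 members 7 had such a sequence in the table; Bmp2 and Acvrl1 were not matched.

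The read density of a gene is its reads per kb of assigned peak, and it is compared within a list only, as a percentile from 0 at the sparsest to 100 at the densest gene. The median gene had 48.8 reads per kb of SOX7 peak, 68.9 of FLI1 peak and 31.6 of ERG peak. Listed members had a median SOX7 percentile of 65.2 (range 14.7 to 89.8), where 50 is the middle of each list. Their median FLI1 percentile was 70.2 (22.8 to 82.4) and their median ERG percentile 58.5 (33.4 to 81.5). Bmper was the densest member for both SOX7 and FLI1, and Eng for ERG. Of the listed members, 2 of 8 had 2 or more SOX7 peaks (25.0%, against 31.1% of SOX7 genes). For FLI1 it was 5 of 7 (71.4%, against 36.0%), and for ERG 1 of 5 (20.0%, against 7.98%). Gene length was not accounted for and the members were picked with earlier results known, so these shares describe these genes.

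The counts of listed members depended on how much of a list was used. In the denser 50% of each list stood 5 members for SOX7 (11.5% of the reference genes), 5 for FLI1 (18.0%) and 3 for ERG (2.83%), the last being Bmpr2, Acvrl1 and Eng. When the longer lists were shortened to their densest genes, as many as ERG has, 3 members remained for SOX7 (5.57% of the reference genes), namely Bmp6, Bmper and Acvrl1, and 0 for FLI1 (5.33%). With at least 50 reads there were 7 for SOX7 (18.5%), 7 for FLI1 (34.1%) and 1 for ERG (2.15%), which was Eng.

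**Figure D1:**
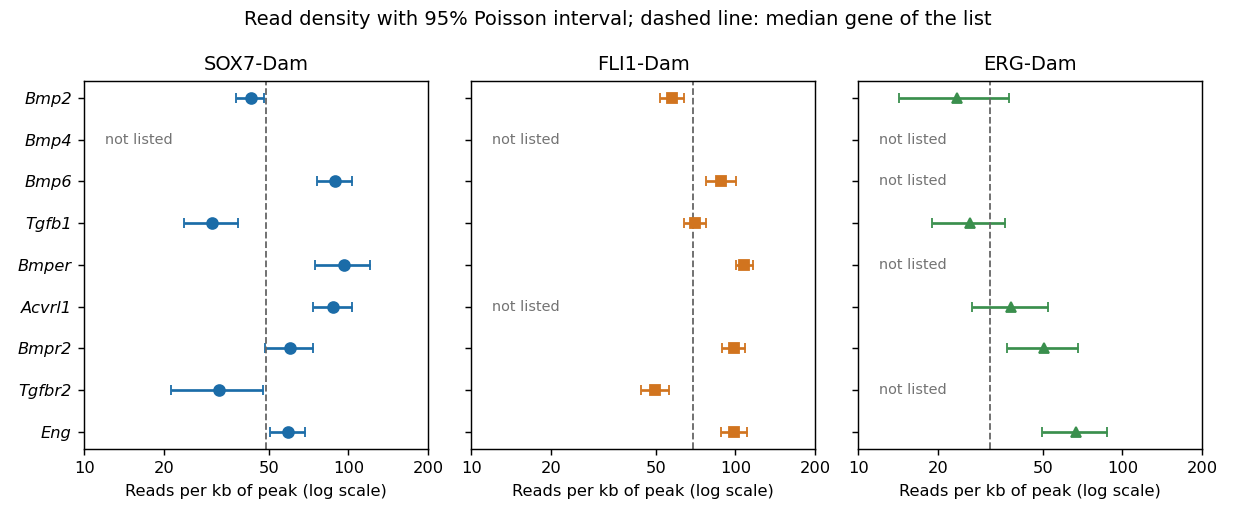
Read density of the 9 genes in each list, in reads per kb of peak on a log axis, with 95% Poisson intervals of the reads; the dashed line is the median gene of that list. Bmp6, Bmper, Acvrl1 and Eng lie above the SOX7 median with their whole interval, and Bmp2, Tgfb1 and Tgfbr2 below it.

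Among the ligand genes, Bmp2 encodes a BMP needed for heart formation. It carried the most peaks of any member, 2 for SOX7, 3 for FLI1 and 1 for ERG. They alternated along 27.8 kb of chromosome 2 (mm9), from 133357998 to 133385748. In order of position there was a FLI1 peak (133357998 to 133359898), a SOX7 peak (133361649 to 133362949), a FLI1 peak (133371198 to 133373798) with the ERG peak inside it (133372738 to 133373538), a SOX7 peak (133376699 to 133381549) and a last FLI1 peak (133384398 to 133385748). No SOX7 peak met a FLI1 or ERG peak there. The gaps from the SOX7 peaks to the nearest FLI1 peaks were 1751 and 2849 bp. The mark falls on GATC sites close to a bound factor, so short gaps, here or at other members, do not show separate binding sites. The SOX7 peaks held 262 reads at 42.6 reads per kb (37.6 to 48.1), the FLI1 peaks 337 reads at 57.6 (51.6 to 64.1) and the ERG peak 19 reads at 23.7 (14.3 to 37.0). These densities stood at percentiles 38.8, 33.8 and 33.4, below the middle of every list, and for ERG the interval of the percentile ran from 5.07 to 57.4. By read count Bmp2 stood at percentile 85.0 for SOX7, 76.9 for FLI1 and 19.95 for ERG. The second SOX7 peak was 4850 bp wide, wider than 98.5% of SOX7 peaks.

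Bmp6, a BMP ligand gene expressed by endothelial cells and known for its part in iron regulation, had 2 SOX7 peaks and 1 FLI1 peak within 5550 bp of chromosome 13. The SOX7 peak from 38442453 to 38443453 shared 711 bp with the FLI1 peak from 38442742 to 38445442, which is 71.1% of the SOX7 peak and 26.3% of the FLI1 peak. The other SOX7 peak, from 38447103 to 38448003, lay 1661 bp beyond it. SOX7 had 169 reads at 88.9 reads per kb (76.0 to 103), percentile 87.3, and FLI1 had 238 reads at 88.1 (77.3 to 100.1), percentile 70.2. The nearest peak in the ERG list, assigned to Muted, was 223966 bp away.

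Tgfb1, which encodes the founding TGF-beta ligand, carried 1 SOX7, 2 FLI1 and 2 ERG peaks, and only 7.98% of genes in the ERG list had 2 or more. Its peaks fell into 2 places on chromosome 7. At the first, the SOX7 peak (26472848 to 26475248), a FLI1 peak (26472653 to 26475303) and an ERG peak (26472695 to 26473495) shared 647 bp. At the second, an ERG peak (26490545 to 26491295) lay inside the other FLI1 peak (26487853 to 26491403), 15297 bp from the SOX7 peak. The FLI1 peaks held 437 reads at 70.5 reads per kb (64.0 to 77.4), percentile 52.0, and the ERG peaks 41 reads at 26.4 (19.0 to 35.8), percentile 39.9. The SOX7 peak held 73 reads at 30.4 reads per kb (23.8 to 38.2), percentile 14.7, the lowest of the 8 members in that list. Peaks of all 3 factors thus met at Tgfb1, while its SOX7 density was below the middle of the list. The intervals of its FLI1 percentile (42.6 to 59.9) and its ERG percentile (20.3 to 56.2) took in the middle.

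Bmp4 encodes the ligand used to induce mesoderm. In the order of protein-coding genes in RefSeq it lies between Ddhd1 and Cdkn3, and peaks assigned to these genes bound 1.11 Mb of chromosome 14 (mm9), from 46270607 to 47379457. That interval held 5 SOX7 peaks, 9 FLI1 peaks and 0 ERG peaks, and each was assigned to a gene other than Bmp4. The FLI1 peak from 46980107 to 46982007, with 92 reads at 48.4 reads per kb (percentile 20.8), was assigned to Gm15217, which is next to Bmp4 in the order of all RefSeq genes. The other peaks were assigned to Gm15218, Gm15219, Gm15221, E130120K24Rik and Gm7206. No source used here gives the rule that assigned peaks to genes, and the lists used here may not hold every row of the originals. A missing row for Bmp4 therefore does not show that the gene or its neighbourhood lacked peaks. The same limit holds for every other member without a row in a list.

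Bmper encodes a secreted protein that binds BMPs and can inhibit or favour their signalling, and it is known from endothelial precursors. It had 1 SOX7 peak and 3 FLI1 peaks on chromosome 9, spread over 65.2 kb. The SOX7 peak, from 23009754 to 23010504, lay with 86.3% of its length in the first FLI1 peak, from 23008101 to 23010401. The other FLI1 peaks were at 23053351 to 23055751 and 23071651 to 23073301, 42847 and 61147 bp from the SOX7 peak. SOX7 had 72 reads at 95.9 reads per kb (75.0 to 121), percentile 89.8, and FLI1 had 687 reads at 108 (100.2 to 117), percentile 82.4. The SOX7 peak was 750 bp wide, narrower than almost all others (width percentile 1.82), and by its read count alone Bmper stood at percentile 38.0 of the SOX7 list. The nearest peak in the ERG list, assigned to Bbs9, was 590248 bp away.

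**Figure D2:**
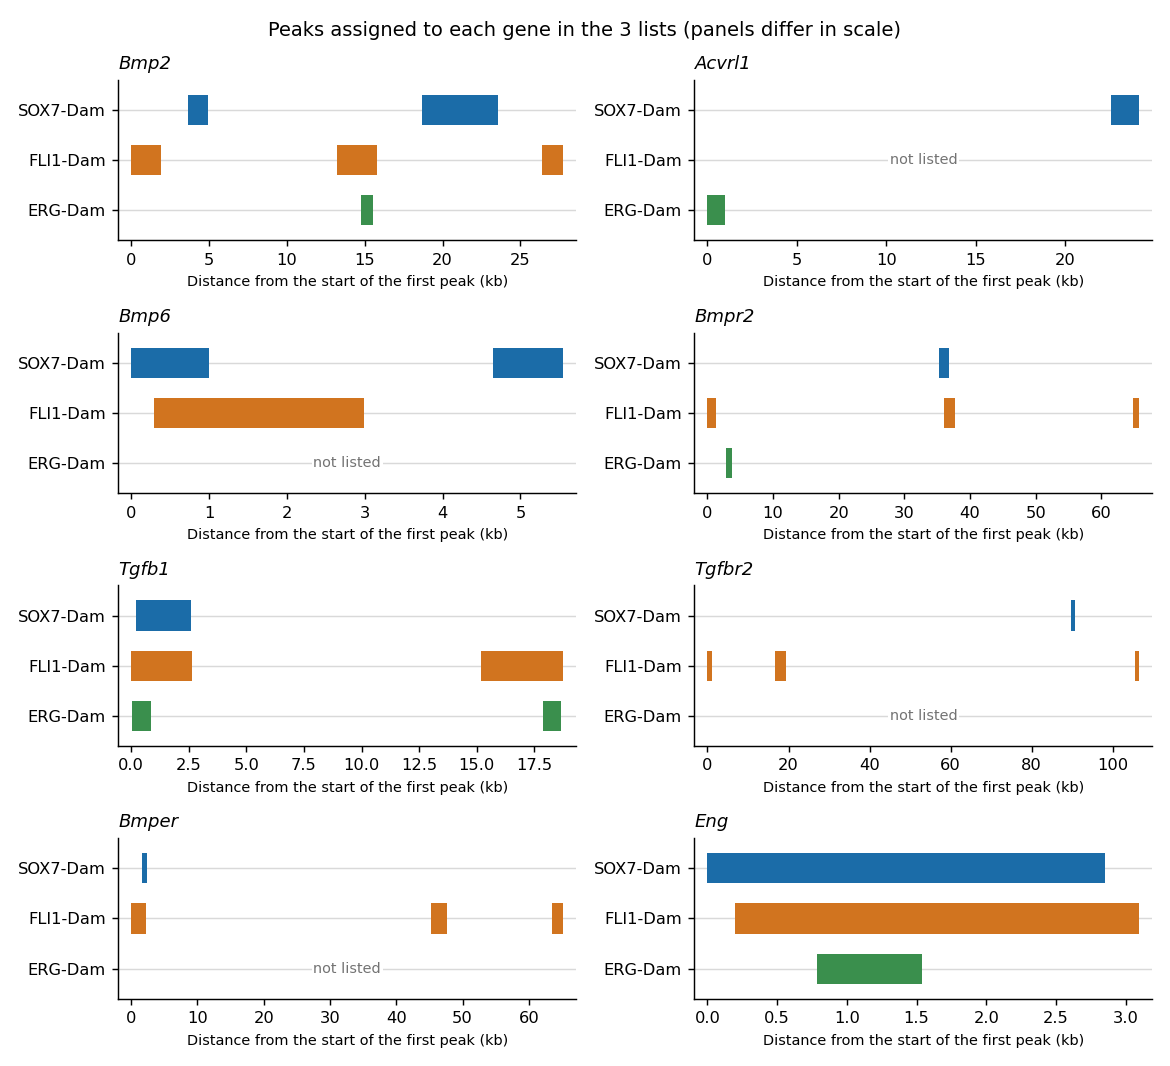
Position of every peak assigned to the 8 listed genes, in kb from the start of the first peak of any factor; each row is 1 factor, each box 1 peak, and the panels differ in scale. Peaks of all 3 factors overlap at Eng and at the first place of Tgfb1. At Bmp2 no SOX7 peak overlaps a peak of FLI1 or ERG.

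Acvrl1, which encodes ALK1, had 1 SOX7 peak (100981879 to 100983479) and 1 ERG peak (100959324 to 100960324) on chromosome 15, 21555 bp apart. The SOX7 peak held 140 reads at 87.5 reads per kb (73.6 to 103), percentile 86.6, and the ERG peak 38 reads at 38.0 (26.9 to 52.1), percentile 58.5. Acvrl1 had no row in the FLI1 list, the longest of the 3, in which 35.3% of the reference genes had one. The nearest peak in that list, assigned to Ankrd33, lay 35962 bp from the ERG peak and 58517 bp from the SOX7 peak. ERG-Dam and FLI1-Dam were called against the same control library, and the cause of the missing FLI1 row was not tested.

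Bmpr2, the type II receptor gene for BMPs, had 1 SOX7, 3 FLI1 and 1 ERG peaks along 65.8 kb of chromosome 1. The SOX7 peak (59853558 to 59855058) shared 751 bp with the middle FLI1 peak (59854307 to 59855957), 50.1% of its own length. The ERG peak (59821136 to 59821986) touched neither, and lay 1479 bp from the first FLI1 peak (59818307 to 59819657) and 31572 bp from the SOX7 peak. The third FLI1 peak was at 59883107 to 59884107. By reads per kb Bmpr2 was above the middle of all 3 lists, and by read count it was below it for SOX7, at percentile 47.7. FLI1 had 394 reads at 98.4 reads per kb (89.0 to 109), percentile 77.5, and ERG had 43 reads at 50.5 (36.6 to 68.1), percentile 71.0. SOX7 had 90 reads at 60.0 reads per kb (48.2 to 73.7), percentile 65.7, and the interval of that percentile, 49.1 to 78.6, took in the middle of the list.

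Tgfbr2, the type II receptor gene for TGF-beta, had its peaks farthest apart, over 106.6 kb of chromosome 9. Its FLI1 peaks were at 115992601 to 115993801, 116009251 to 116012101 and 116098101 to 116099201, and its SOX7 peak at 116082404 to 116083204, 14897 bp from the nearest of them. The FLI1 peaks held 256 reads at 49.7 reads per kb (43.8 to 56.2), percentile 22.8, the lowest of the members there. The SOX7 peak held 26 reads at 32.5 reads per kb (21.2 to 47.6), percentile 18.5. Both values were below the list median with their whole interval, and no peak of the ERG list was nearer than 825148 bp. By read count Tgfbr2 stood at percentile 67.3 for FLI1 and 2.89 for SOX7.

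Eng, whose product endoglin presents TGF-beta family ligands to ALK1, was the member with the most compact layout, with 1 peak per factor in 3099 bp of chromosome 2. The SOX7 peak (32508399 to 32511249) and the FLI1 peak (32508598 to 32511498) shared 2651 bp, 93.0% of the former and 91.4% of the latter. The ERG peak (32509188 to 32509938) lay whole inside both, so that all 3 shared its 750 bp. Of 411 regions with peaks of all 3 factors, 383 had a base common to all, with a median of 950.0 bp in common. The ERG peak held 50 reads at 66.6 reads per kb (49.4 to 87.8), 2.11 times the median ERG gene, the FLI1 peak 287 reads at 98.9 (87.8 to 111) and the SOX7 peak 168 reads at 58.9 (50.4 to 68.6). Their percentiles were 81.5 for ERG, 77.7 for FLI1 and 64.6 for SOX7, and the whole interval was above the list median for each factor.

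Over all members there were 10 SOX7, 16 FLI1 and 6 ERG peaks, none of which was also assigned to another gene. With an overlap of at least 1 bp, 5 of 10 SOX7 peaks (50.0%, 18.7 to 81.3) met a FLI1 peak, against 35.2% of all SOX7 peaks, and 5 of 16 FLI1 peaks (31.3%, 11.0 to 58.7) met a SOX7 peak, against 20.9%. For SOX7 with ERG it was 2 of 10 SOX7 peaks (20.0%, 2.52 to 55.6), against 5.13%, and 2 of 6 ERG peaks (33.3%, 4.33 to 77.7), against 32.4%. For ERG with FLI1, which share a control library, 4 of 6 ERG peaks (66.7%, 22.3 to 95.7) and 4 of 16 FLI1 peaks (25.0%, 7.27 to 52.4) met, against 49.3% and 4.63% of all peaks. Of the 4 FLI1 peaks that met ERG, 2 belong to Tgfb1, and under a rule that asks for the midpoint of the FLI1 peak to lie inside the ERG peak the count was 0. The intervals treat each peak as an independent draw, which peaks of 1 gene are not. The members were chosen with earlier results known, so the shares describe these peaks and were not tested against their lists.

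Counted by gene, 5 of 7 members listed for SOX7 and FLI1 had overlapping peaks of both, namely Bmp6, Bmper, Tgfb1, Bmpr2 and Eng, against 64.2% of 4511 such genes. Of 5 members listed for SOX7 and ERG, Tgfb1 and Eng had them, against 55.3% of 968 genes. Of 4 listed for FLI1 and ERG, Bmp2, Tgfb1 and Eng had them, against 65.1% of 1245 genes. Of the 4 members in all 3 lists, Tgfb1 and Eng had a region where their own peaks of all 3 met, against 48.4% of 876 genes. Bmp2 and Bmpr2 were in all 3 lists with no such region. The members formed 23 merged regions, of which 2 held all 3 factors, against 1.71% of 23972 regions over the genome.

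The order of members by density was Bmper, Bmp6, Acvrl1, Bmpr2, Eng, Bmp2, Tgfbr2 and Tgfb1 for SOX7. Of its 7 neighbouring pairs 6 had overlapping intervals, and the step between Eng and Bmp2 was the exception. For FLI1 the order was Bmper, Eng, Bmpr2, Bmp6, Tgfb1, Bmp2 and Tgfbr2, and for ERG it was Eng, Bmpr2, Acvrl1, Tgfb1 and Bmp2, with overlapping intervals for all 6 and all 4 neighbouring pairs. The ratio of the densest to the sparsest member was 3.15 with SOX7, 2.18 with FLI1 and 2.81 with ERG. Ranking by read count, which adds up over the peaks of a gene, moved 6 of 20 percentiles across the middle of the list. Bmp2 then stood at percentile 85.0 for SOX7 and 76.9 for FLI1, Tgfbr2 at 67.3 for FLI1 and Tgfb1 at 54.9 for ERG, all above the middle. Bmper at 38.0 and Bmpr2 at 47.7 were below it for SOX7. Eng stayed above the middle of each list, at 72.5, 71.6 and 62.7 for SOX7, FLI1 and ERG.

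**Figure D3:**
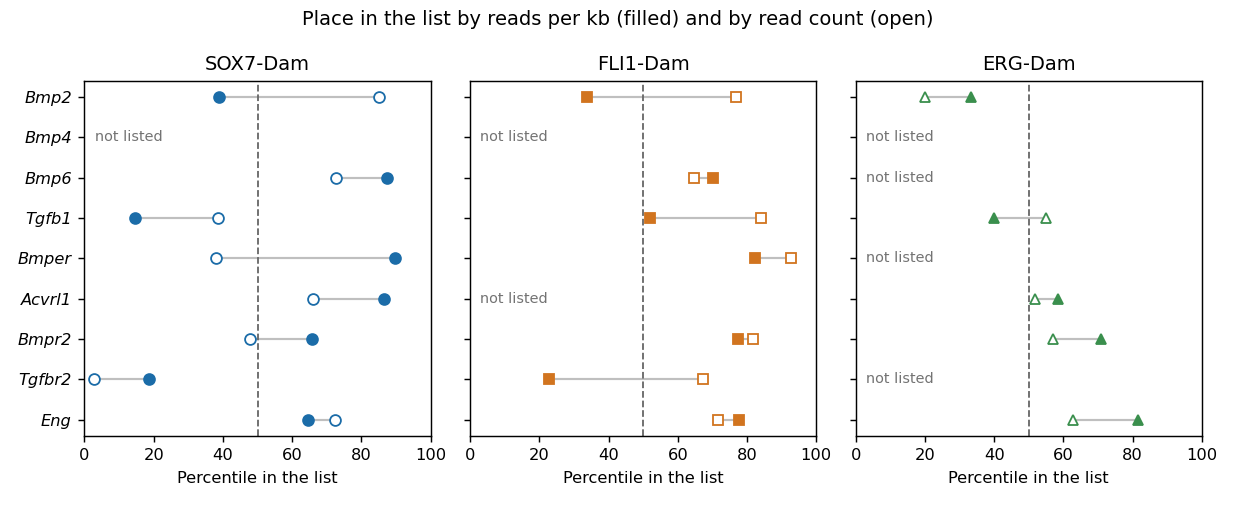
Percentile of the 9 genes within each list, from reads per kb (filled) and from read count (open), with the middle of the list dashed. Bmp2 and Tgfbr2 move up with the read count for FLI1, Bmper moves down for SOX7, and Eng is above 50 in every list with both.

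Among 754 protein-coding genes in all 3 lists, the genes with the percentiles closest to each member were Cdkn1b and Dscam for Bmp2, Ebf1 and Cxadr for Tgfb1, Spred2 and Mrpl33 for Bmpr2, and Gpr124 and Rfx4 for Eng. Likeness was the largest of the 3 differences in percentile, over 3 libraries, and was 0.756 points for Spred2 with Bmpr2, 1.30 for Cdkn1b with Bmp2, 2.21 for Ebf1 with Tgfb1 and 3.53 for Gpr124 with Eng. The percentiles of these members had counting intervals wider than such differences. The narrowest was 71.0 to 82.7, for Bmpr2 with FLI1, and the widest 5.07 to 57.4, for Bmp2 with ERG.

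The wider pathway was taken as 82 genes, the 9 members and 73 others. Of the 73 others, the SOX7 list held 29 (39.7%, 28.5 to 51.9), against 23.0% of the reference genes. The FLI1 list held 40 (54.8%, 42.7 to 66.5), against 35.3%, and the ERG list 9 (12.3%, 5.80 to 22.1), against 5.75%. Their median percentiles were 49.3, 60.9 and 67.3. The wider list was chosen with earlier results of these data known and gene length was not accounted for. The shares therefore describe these genes and were not tested against the reference. The counts by role that follow include the members, and with 5 to 20 genes a role their intervals are wide. Ligand genes of the BMP group were listed in 4 of 11 cases for SOX7 (36.4%), 6 for FLI1 (54.5%) and 1 for ERG (9.09%), the last being Bmp2. TGF-beta, activin, nodal and GDF ligand genes were listed in 5, 10 and 5 of 17 cases (29.4%, 58.8% and 29.4%), in the same order of factors. Type I receptor genes were listed in 4, 3 and 2 of 7 cases (57.1%, 42.9% and 28.6%), type II receptor genes in 3, 3 and 1 of 5 (60.0%, 60.0% and 20.0%), and coreceptor genes in 4, 5 and 1 of 6 (66.7%, 83.3% and 16.7%). Extracellular modulator genes were listed in 5, 8 and 2 of 20 cases (25.0%, 40.0% and 10.0%), against 23.0%, 35.3% and 5.75% of the reference genes. Of the 20, 11 had no row in any list, where 57.5% of the reference genes had none. SMAD, SMURF, SKI and ID genes were listed in 12, 12 and 2 of 16 cases (75.0%, 75.0% and 12.5%).

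Beside the members, the genes of the wider pathway in all 3 lists were Tgfb2, Lefty2 and Smad7. Lefty2, which encodes an inhibitor of nodal signalling, had 120 ERG reads at 88.8 reads per kb (73.6 to 106), percentile 90.3, 98 SOX7 reads at percentile 87.4 and 228 FLI1 reads at percentile 61.2. Tgfb2, another TGF-beta ligand gene, had its highest percentile with FLI1, at 78.3, and stood at 49.2 with SOX7 and 42.1 with ERG. The densest pathway genes were the inhibitory SMAD gene Smad7 and the ubiquitin ligase gene Smurf2 for SOX7 (percentiles 98.5 and 90.2), Bmp8a and Ltbp4 for FLI1 (98.7 and 96.6), and Smad7 and Lefty2 for ERG (97.8 and 90.3). The FLI1 peak of Bmp8a, a BMP ligand gene, held 401 reads at 250.5 reads per kb (227 to 276), above every member in that list. Ltbp4, which encodes a latent TGF-beta binding protein, had 380 FLI1 reads at 185 reads per kb (167 to 205) and 134 ERG reads at 70.5 (59.1 to 83.5).

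**Figure D4:**
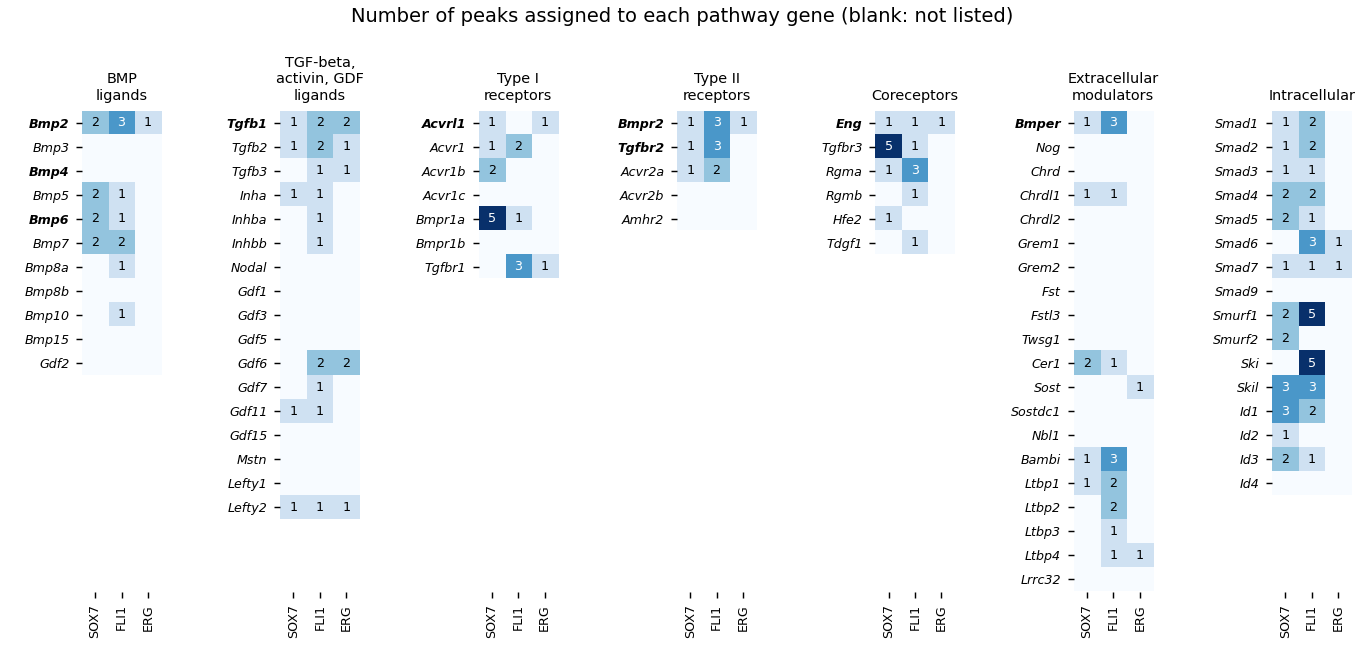
Number of peaks assigned to each of 82 pathway genes in the SOX7, FLI1 and ERG lists, in columns by role, with the 9 genes described here in bold. Bmp2, Tgfb1, Bmpr2 and Eng have peaks in all 3 columns, as have Tgfb2, Lefty2 and Smad7, and Bmp4 has no row in the lists used here.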

How the data were processed

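DamID reads of 3 factor libraries were deposited as peak lists by gene. Per the labels, SOX7 peaks were called against 1 Dam-only library, and FLI1 and ERG peaks against another. Per the file headers the deposited values are a read count, here whole reads over the peaks of a gene, and the same count divided by peak length in kb, which is a coverage signal. The authors' signal was recomputed, to within 0.02, in all 6530, 10246 and 1579 genes of SOX7, FLI1 and ERG as count times 1000 over summed peak length, each peak taken as end minus start plus 1. Widths in the text are end minus start. The values are not scaled to library size or divided by the control, and library depth is unknown. For a gene with several peaks the density is a mean over them. The submitters' processing notes name mm9 for the positions. No source used here names the aligner, peak caller, threshold, annotation or assignment rule, or says whether a peak is exonic or intronic.

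Members were matched by symbol, the 21900 reference genes by current or older symbol (96.5%, 95.6% and 95.7% of protein-coding genes of SOX7, FLI1 and ERG matched). Percentiles use mid-ranks over all listed genes. Intervals are 95% Poisson (reads), which cover counting error only, and exact Clopper-Pearson (shares). Amplified reads carry no molecular identifiers. Overlap was at least 1 bp, and merged regions are chains of overlapping peaks. No test between factors was possible with 1 library per group. The members, the 82-gene list and the alternatives were chosen with earlier results of these data known. Named genes were all members, wider pathway genes in all 3 lists or the 2 densest per list, the 2 genes closest in percentile to each member in all 3 lists, and the holders of nearest peaks; the genes around Bmp4, Acvr1b and the other gene neighbours were named after their values were seen. The overlap step was tested on simulated peaks. Python 3.11.15, pandas 2.3.3, SciPy 1.17.1 and matplotlib 3.10.9 were used.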

Additional observations from a re-analysis of the deposited data

How the results depend on the processing

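Of the 82 wider pathway genes, members included, the full SOX7, FLI1 and ERG lists held 37, 47 and 14 (45.1%, 57.3% and 17.1%). The denser 50% of each list held 5 members for SOX7 (11.5% of reference genes), 5 for FLI1 (18.0%) and 3 for ERG (2.83%). Of the 82 genes it held 17, 28 and 8. Among the densest genes of SOX7 and FLI1, as many as ERG has, stood 3 members for SOX7 (5.57% of reference genes) and 0 for FLI1 (5.33%). Of the 82 genes, 10 and 5 stood there. With at least 50 reads, 7 members were listed for SOX7 (18.5% of reference genes), 7 for FLI1 (34.1%) and 1, Eng, for ERG (2.15%). Of the 82 genes, 29, 45 and 5 were listed at that setting. Requiring the midpoint of a peak inside the other peak left 1 SOX7 peak meeting ERG, 2 FLI1 peaks meeting SOX7 and 0 FLI1 peaks meeting ERG, and by construction it favours the narrower peak. The remaining overlap counts, and the 2 regions of all 3 factors at Eng and Tgfb1, did not move under the alternatives run for them (50% of the shorter peak, a gap of up to 1000 bp, peaks of the same gene only, a base common to all 3). Of 20 density percentiles, 20 stayed inside their counting interval among protein-coding genes, 19 among genes with a like number of peaks and 8 by read count, where the largest move was 51.8 points. No paired analysis was possible because each group has 1 library. Counts as low as 19 reads, as for Bmp2 in the ERG list, leave the percentile wide.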

Other observations

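Acvr1b, which encodes the activin type I receptor ALK4 and follows Acvrl1 in gene order, was listed for SOX7 only. Its 2 SOX7 peaks on chromosome 15 (mm9), at 101000079 to 101001929 and 101021479 to 101022679, began 16600 and 38000 bp after the Acvrl1 SOX7 peak, and held 220 reads at 72.1 reads per kb (62.9 to 82.3), percentile 77.4. Neither gene had a row in the FLI1 list, in which 35.3% of the reference genes had one.

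Of the 36 nearest protein-coding neighbours of the members, 2 on each side in RefSeq gene order, 4 were in all 3 lists. That is 11.1%, against 3.35% of the reference genes. The neighbours were named after their values were seen, around members picked with earlier results known, so the share only describes these 36 genes. Muted (Bloc1s5 in RefSeq), separated from Bmp6 by Txndc5 in gene order, had 2 SOX7, 3 FLI1 and 3 ERG peaks. Bmp6 had no row in the ERG list. Hnrnpul1, separated from Tgfb1 by Ccdc97, had 1 peak of each factor on chromosome 7, at 26540248 to 26541448 for SOX7, 26540103 to 26541403 for FLI1 and 26540145 to 26541595 for ERG. Fermt2, beyond Ddhd1 from Bmp4, had 1 SOX7, 5 FLI1 and 1 ERG peaks, and Stt3b, separated from Tgfbr2 by Gadl1, had 1 SOX7, 2 FLI1 and 1 ERG peaks.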
